A study of Mus musculus with 138 samples.

Results

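The embryos described here are mouse embryos at the 2-cell stage that had been injected as zygotes with an antibody to SMARCA5, collected as replicate 3 and as replicate 1 of 1 experiment. They were chosen by title, and libraries with under 100000 counts were left out, which kept 7 of 8 libraries of replicate 3 and 17 of 18 of replicate 1. These are 24 of the 116 libraries kept in the whole series and of the 66 kept in the injection experiment. Per the labels the embryos were wild type, the protein was removed by TrimAway at the zygotic stage, and libraries were made a day or more after injection. The strain, the antibody's dose and the age of the females are not given. The same replicate numbers exist for embryos that were not injected (10 libraries of replicate 1 and 5 of replicate 3) and for embryos injected with IgG, a non-specific antibody (10 and 10). A replicate number stands for a separate pool of injected embryos, and the design text calls such pools technical replicates. A library is 1 plate well, and p-values measure the spread between wells of 2 pools, so a difference between replicates is a difference between 2 collections.

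SMARCA5, also called SNF2H, is the ATPase motor of the ISWI chromatin remodelling complexes, which slide nucleosomes and space them evenly. In TrimAway the injected antibody binds its target, the ubiquitin ligase TRIM21 binds the antibody, and the proteasome degrades the whole complex. TRIM21 is usually supplied by co-injected RNA, so Trim21 RNA marks an embryo that received this RNA. Its absence does not show that an embryo was not injected. In the mouse, the main wave of transcription from the embryo's own genome begins at the 2-cell stage, while RNA stored in the egg is degraded.

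The libraries measured polyadenylated RNA as read counts per gene. Total counts ranged from 951489 to 4009610 in replicate 3 and from 989287 to 2321338 in replicate 1, and the difference did not pass an exact permutation test (p = 0.636, adjusted over 4 measures 0.812). After thinning to 100000 counts, 8219 ± 1163 genes (SD, n = 7) were detected in replicate 3 and 9402 ± 596 (SD, n = 17) in replicate 1, a difference of -1183 (two-sided exact permutation p = 0.0063, adjusted over 4 measures 0.0252). The uninjected libraries held 9407 ± 158 and 9685 ± 639 genes in replicates 1 and 3. Their total counts had a median of 1838000 in replicate 1 (365597 to 2351642) and 798765 in replicate 3 (746111 to 967761). Depth thus differed with the collection in uninjected embryos, and its part in their comparison cannot be told apart from that of the collection. The share of mitochondrial counts was 22.6% ± 8.07 against 23.8% ± 10.7 (exact permutation p = 0.812). All these libraries ran on 1 lane, but each collection filled its own plate columns, so plate position and collection cannot be told apart. Within replicate 3 the anti-SMARCA5 libraries lay in column 5 and the uninjected ones in column 4. Plate column and injection cannot be told apart there either. Some libraries that bear on the results stand apart. Wells A07 and E06 of anti-SMARCA5 replicate 1 were as low as replicate 3 in their 2-cell stage genes. Well B05 of anti-SMARCA5 replicate 3 was the lowest of its group in maternal transcripts, and well F04 decided the count of genes in uninjected embryos.

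Relative to the other RNA of their libraries, embryos of replicate 3 held more of many maternal transcripts than embryos of replicate 1. They held less RNA of most listed genes that switch on at the 2-cell stage, at overlapping levels of Trim21 RNA. Counts were scaled within libraries and included no spike-in RNA, so the amount of RNA per embryo was not measured. A library sums a whole well, so fewer transcribing cells and less RNA per cell cannot be told apart. Of 11114 genes tested with edgeR's quasi-likelihood test, 2887 (26%) were called at a Benjamini-Hochberg adjusted p under 0.05, 1196 higher (10.8%) and 1691 lower (15.2%) in replicate 3. Of 31 tested 2-cell stage genes, 25 fell and 3 rose, and of 42 tested maternal transcripts, 21 rose and 1 fell. Among genes of protein synthesis, 46 of 82 cytosolic ribosomal protein genes and 29 of 59 nucleolar genes fell and 0 rose. In uninjected embryos the same comparison called 69 of 10491 genes (0.658%), a count that became 1133 of 10986 (10.3%) without well F04. The median log2 change over all tested genes of the anti-SMARCA5 comparison was -0.23 with TMM scaling, -0.36 with relative log expression factors, -0.37 with DESeq2 and -0.49 with total counts. The share of called genes that were higher was 41.4%, 33.1%, 28.0% and 28.2% under these scalings, and the median of a list is to be read against that of all genes.

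In 25 of the 11114 genes every replicate 3 library lay above every replicate 1 library, and in 6 every one lay below, against 26% of genes called. Most called genes therefore overlapped between the collections.

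Trim21 (chromosome 7, positions 102557922 to 102565469 of GRCm38) overlapped between the collections. Its lowest, median and highest levels were 266, 1456 and 6125 CPM (counts scaled to equal library totals) in replicate 1 and 207, 1444 and 3587 CPM in replicate 3. The medians were nearly equal, and 13 of the 17 replicate 1 libraries lay below the highest of replicate 3. The log2 change was -0.57 (SE 0.57, edgeR adjusted p = 0.480). Uninjected libraries held at most 2.16 CPM. Smarca5 RNA, which TrimAway does not target directly, was 38.8, 387 and 848 CPM (lowest, median, highest) in replicate 1 and 37.4, 134 and 518 CPM in replicate 3. Of the 7 replicate 3 libraries, 6 lay below the median of replicate 1, and the exception was well B05. The log2 change of -1.04 (SE 0.46, edgeR adjusted p = 0.0894) did not pass the threshold, and its adjusted p ranged from 0.0052 to 0.191 over the alternatives. In uninjected embryos Smarca5 was 504, 626 and 891 CPM in replicate 1. The 5 libraries of replicate 3 held 525, 472, 1061, 503 and 323 CPM, so the collections overlapped, with a log2 change of -0.06 (adjusted p = 0.933).

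**Figure D1:**
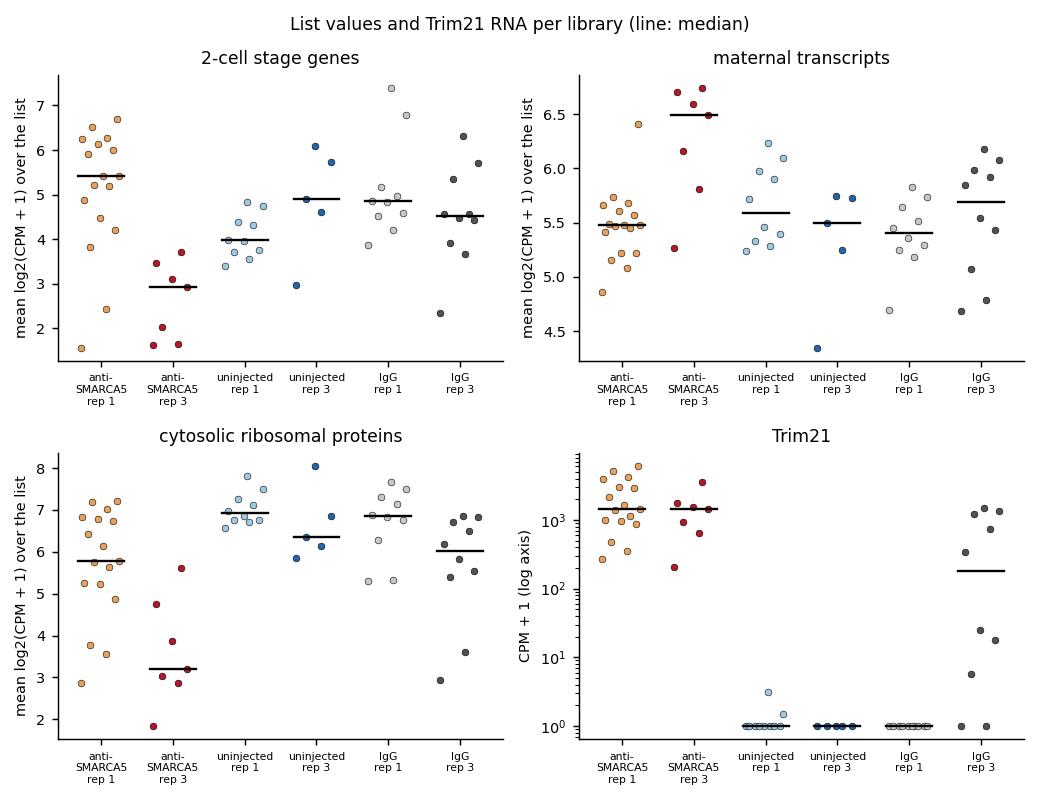
Each point is 1 library, by group (rep 1 and rep 3 are the collections), and the line is the group's median. The y axes show the mean of log2(CPM + 1) over the genes of a list, or Trim21 as CPM + 1 on a log axis. The 7 anti-SMARCA5 libraries of replicate 3 lie between 1.62 and 3.71 for 2-cell stage genes, all below the replicate 1 median of 5.41, while Trim21 overlaps (266 to 6125 CPM in replicate 1 and 207 to 3587 CPM in replicate 3).

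Of 13 tested genes for ISWI motors and partners, 3 rose (23.1%, against 10.8% of all tested genes) and 1 fell (7.69%, against 15.2%), and their median log2 change was 0.16 (-0.11 with total counts), beside -0.23 for all tested genes. Baz1a, which encodes the ACF1 subunit, fell by 1.05 (SE 0.31, edgeR adjusted p = 0.0129), from a median of 277 to 77.6 CPM. Baz2b, a subunit of other ISWI complexes, rose by 0.95 (SE 0.34, edgeR adjusted p = 0.0397), from 51.1 to 84.1 CPM, and lost the call in 11 of 32 alternatives, with an adjusted p of up to 0.129. Bptf, the large subunit of NURF, rose by 0.56, and Hmgxb4 rose by 0.94. Smarca1, the other ISWI motor, was too low to test, and its highest value in these embryos was 27.3 CPM in well B05 of replicate 3.

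The 10 largest rises among called genes of sufficient level (average log2 CPM of at least 5) included Btg4 and Bcl2l10, both on the list of maternal transcripts. Btg4 (chromosome 9, positions 51116001 to 51119700) encodes an adaptor that brings a deadenylase to maternal mRNAs and so promotes their decay. Its lowest, median and highest levels were 48.7, 310 and 1313 CPM in replicate 1 and 618, 2176 and 5520 CPM in replicate 3. All 7 replicate 3 libraries lay above the replicate 1 median and 4 lay above every replicate 1 library, with a log2 change of 3.25 (SE 0.50, edgeR adjusted p = 9.66e-05). Uninjected embryos had a median of 558 CPM in replicate 1 and 473, 562, 97.1, 729 and 197 CPM in replicate 3 (log2 change -0.29, adjusted p = 0.760).

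Nlrp4a (chromosome 7, positions 26435113 to 26476142) belongs to the NLRP family of genes transcribed in growing oocytes. It was 12.7, 37.1 and 91.2 CPM in replicate 1 and 58.4, 246 and 884 CPM in replicate 3, and 6 of 7 replicate 3 libraries lay above every replicate 1 library. The log2 change was 3.22 (SE 0.40, edgeR adjusted p = 4.40e-05). Bcl2l10 (chromosome 9, positions 75347758 to 75351632), an oocyte member of the BCL2 family, was 21.3, 133 and 388 CPM in replicate 1 and 198, 887 and 2185 CPM in replicate 3. Its log2 change was 3.17 (SE 0.44, edgeR adjusted p = 4.40e-05), and 4 of 7 libraries lay above all of replicate 1. The other members of the 10 largest rises were Tcl1b2 (3.18), Atpbd4 (3.11), Gm11381 (2.99), Nlrp4g (2.99), Gm11818 (2.95), Eef2k (2.94) and Med30 (2.91). Nlrp4g is annotated as a pseudogene and has close relatives, and how reads with several matches were counted is not stated. Eef2k, the kinase that inhibits translation elongation factor 2, went from a median of 19.8 to 88.8 CPM, and 4 of 7 replicate 3 libraries exceeded all of replicate 1.

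**Figure D2:**
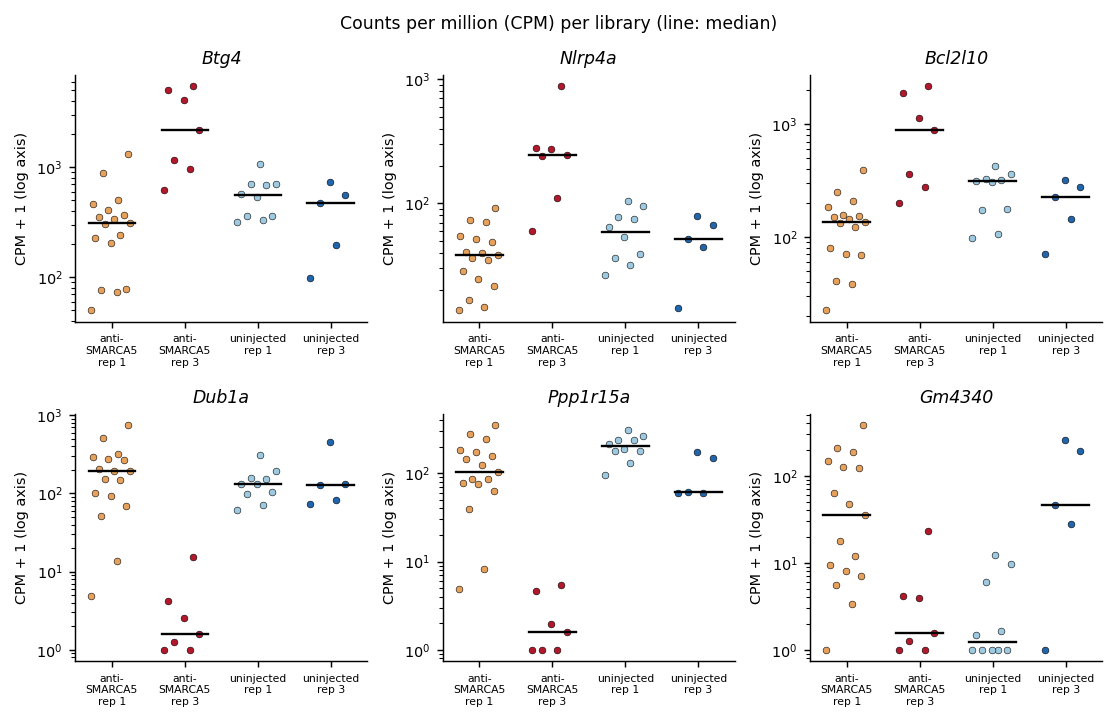
Each point is 1 library and the line is the median, with CPM + 1 on a log axis. Btg4, Nlrp4a and Bcl2l10 are high in anti-SMARCA5 replicate 3 (medians 2176, 246 and 887 CPM). Dub1a and Ppp1r15a are near 0 there (0.578 CPM each), and Gm4340 is low in anti-SMARCA5 replicate 3 and high in 4 of 5 uninjected libraries of replicate 3.

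Across the list of maternal transcripts, 21 of 42 tested rose, 1 fell and the median log2 change was 1.01 (0.77 to 0.85 with the other scalings). Besides Btg4 and Bcl2l10, Nlrp9a rose by 2.83 (median 74.5 to 573 CPM), Nlrp9b by 2.74, Nlrp4f by 2.73 and Oosp1 by 2.70. The oocyte transcription factor gene Nobox rose by 1.97, the oocyte growth factor gene Bmp15 by 1.89 (median 701 to 1515 CPM), and Zar1, which encodes an RNA-binding protein of the egg, by 1.27. Zp3, an egg coat gene, fell by 1.55 (SE 0.45, edgeR adjusted p = 0.0127), and Gdf9, the partner of Bmp15, changed by 0.46 (adjusted p = 0.282). Of 6 tested genes of the subcortical maternal complex, an assembly of egg proteins that early cleavage needs, Zbed3 rose by 1.77 (median 1248 to 3610 CPM) and Ooep by 1.38. Nlrp2 and Tle6 changed by 0.52 and 0.36, with adjusted p of 0.419 and 0.400. Uninjected embryos called 0 of 41 maternal transcripts in either direction, with a median of -0.24, and 2 lower and 0 higher of 42 without well F04.

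Promoters are shown for the 2 largest rises and the 2 largest falls, among these genes, so that the starts of genes that moved in opposite directions can be compared. Each line is the 250 bases upstream of a RefSeq start on GRCm38.p6, 5′ to 3′ on the gene's strand, and capitals mark a match to CCAAT or TATAAA on either strand. Btg4 lies at chr9:51115751-51116000 (plus strand), Nlrp4a at chr7:26434863-26435112 (plus), AC153539.1, which RefSeq names Rfpl4b, at chr10:38821780-38822029 (minus), and Dub1a, which RefSeq names Usp17lb, at chr7:104842584-104842833 (minus).
Btg4: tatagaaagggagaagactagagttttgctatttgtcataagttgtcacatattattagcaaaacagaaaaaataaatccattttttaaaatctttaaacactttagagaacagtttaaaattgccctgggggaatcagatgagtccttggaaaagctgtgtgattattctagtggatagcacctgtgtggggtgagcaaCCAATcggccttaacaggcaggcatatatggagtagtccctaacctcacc
Nlrp4a: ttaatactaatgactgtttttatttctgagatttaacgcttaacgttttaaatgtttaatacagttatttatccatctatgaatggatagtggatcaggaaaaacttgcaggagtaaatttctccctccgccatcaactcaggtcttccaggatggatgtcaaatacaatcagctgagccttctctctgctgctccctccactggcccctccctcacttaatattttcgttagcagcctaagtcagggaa
AC153539.1: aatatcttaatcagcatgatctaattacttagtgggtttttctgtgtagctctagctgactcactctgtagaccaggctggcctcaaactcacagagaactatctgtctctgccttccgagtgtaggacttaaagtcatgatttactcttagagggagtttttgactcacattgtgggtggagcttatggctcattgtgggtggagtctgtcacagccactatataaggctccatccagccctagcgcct
Dub1a: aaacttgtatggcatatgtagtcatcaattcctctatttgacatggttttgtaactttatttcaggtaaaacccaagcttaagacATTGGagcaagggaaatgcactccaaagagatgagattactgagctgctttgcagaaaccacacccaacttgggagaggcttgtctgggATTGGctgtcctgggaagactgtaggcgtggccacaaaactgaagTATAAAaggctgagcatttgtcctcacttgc
Btg4 holds CCAAT at base 201 of its window. Dub1a holds TATAAA at base 220 and CCAAT on the opposite strand at bases 86 and 175. Of 27025 RefSeq promoters of this length, 34.5% hold CCAAT and 13% hold TATAAA on either strand. The E-box CACGTG is in 6.05% of them, the GATA site GATAAG in 6.6%, the ETS site CCGGAAG in 7.05% and the palindrome GCATGC in 6.68%, and the 4 windows shown hold none of these. The windows shown for Nlrp4a and AC153539.1 hold no exact match to any motif searched. Variants of the motifs were not searched. Nlrp4a has 2 RefSeq windows, and only the first was searched.

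By the same level rule, the 2 genes with the largest falls were nearly silent in replicate 3. AC153539.1 (chromosome 10, positions 38820541 to 38821779), a ret finger protein-like gene, was 5.55, 69.8 and 358 CPM in replicate 1 and 0, 0 and 5.12 CPM in replicate 3. All 7 libraries of replicate 3 lay below all of replicate 1, with a log2 change of -6.35 (SE 0.95, edgeR adjusted p = 7.75e-05). In uninjected replicate 3 it was 4.02, 110, 0, 10.5 and 149 CPM, and the log2 change there was -0.05 (adjusted p = 0.989). Dub1a (chromosome 7, positions 104840257 to 104842603) encodes a deubiquitinating enzyme of a family with close copies. It was 3.92, 190 and 747 CPM in replicate 1 and 0, 0.578 and 14.6 CPM in replicate 3, and 6 of 7 libraries lay below all of replicate 1 (log2 change -6.13, SE 0.86, edgeR adjusted p = 4.95e-05). The 5 uninjected libraries of replicate 3 held 131, 457, 81.6, 127 and 71.2 CPM, within or above the range of 60.8 to 309 CPM in replicate 1.

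Ppp1r15a (chromosome 7, positions 45522916 to 45526268) encodes GADD34, which directs a phosphatase to initiation factor 2 and restarts translation after stress. It was 3.92, 102 and 351 CPM in replicate 1 and 0, 0.578 and 4.49 CPM in replicate 3, a log2 change of -5.64 (SE 0.77, edgeR adjusted p = 4.40e-05). In uninjected embryos it was 95.5, 201 and 312 CPM in replicate 1 and 59.0, 148, 172, 60.6 and 58.4 CPM in replicate 3 (log2 change -0.91, adjusted p = 0.109). Ppp1r15a overlaps Tulp2 on the other strand, and whether counting used strand is not stated. The other large falls were Gm6189 (-5.77), Zfp707 (-5.66), AC127374.1 (-5.40), Gm13068 (-5.30), AC165327.2 (-4.87), Gm12800 (-4.80) and Tcstv3 (-4.63). Gm6189 and AC127374.1 are annotated as processed pseudogenes and Gm13068 as antisense to Slc25a33, so their reads may be shared with other genes. Eef2k, Atpbd4, Baz1a, Baz2b, Hspa1a, Nhp2, Eif6, Ddit3, Cdc20, Cdca8, Orc1, Usf1, mt-Nd4l and Ccnd1, described below or above, also overlap another annotated gene, and Obox1 overlaps Obox3. In 10 genes, all of them called lower, every replicate 3 library held 0 counts, and no fold is given for those.

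The 2-cell stage list holds genes known for a burst of expression at that stage, such as the Zscan4 cluster and the Tcstv, Tdpoz and Usp17l families. Of 46 listed genes 34 were in the table and 31 were tested. Of these 25 fell and 3 rose, with a median log2 change of -3.09, and -3.18 to -3.43 with the other scalings. Gm4340 (chromosome 10, positions 104195397 to 104196203) was 0, 34.0 and 382 CPM in replicate 1 and 0, 0.578 and 22.4 CPM in replicate 3 (log2 change -4.44, SE 1.18, edgeR adjusted p = 0.00736). Zscan4d, of the Zscan4 cluster that protects telomeres in stem cells, was 0, 215 and 529 CPM in replicate 1 and 0, 15.4 and 37.3 CPM in replicate 3 and fell by 3.41 (SE 0.90, edgeR adjusted p = 0.00728). Uninjected embryos held a median of 17.7 CPM in replicate 1, nearer to the injected embryos of replicate 3 than to those of replicate 1, and of 72.4 CPM in replicate 3. Zfp352, a zinc finger gene, was 10.3, 255 and 670 CPM in replicate 1 and 6.36, 42.0 and 77.8 CPM in replicate 3, with uninjected medians of 97.2 and 159 CPM. Obox3, a homeobox gene, fell by 4.23, from a median of 45.2 to 0 CPM, Tdpoz4 by 3.77, Zscan4c by 3.46 and Zfp352 by 2.47. The 3 genes that rose were E330034G19Rik (2.48), Zfp750 (1.98) and C87977 (1.62). Close copies are common in this list, so the values of single members are uncertain.

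Read per library, the 2-cell stage list was 1.57, 5.41 and 6.69 (lowest, median, highest mean of log2(CPM + 1)) in replicate 1 and 1.62, 2.93 and 3.71 in replicate 3. All 7 libraries of replicate 3 lay below the replicate 1 median, and 2 of 17 replicate 1 libraries, wells A07 (1.57) and E06 (2.44), lay below the highest of replicate 3. The maternal list was 4.87, 5.48 and 6.41 in replicate 1 and 5.27, 6.49 and 6.74 in replicate 3. There 4 of 7 replicate 3 libraries lay above all of replicate 1, and well B05 (5.27) lay below its median. Without well B05 the comparison called 3066 genes, 25 of 31 2-cell stage genes lower and 22 of 42 maternal transcripts higher. Without well A07 it called 3520 genes and without well E06 3542.

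**Figure D3:**
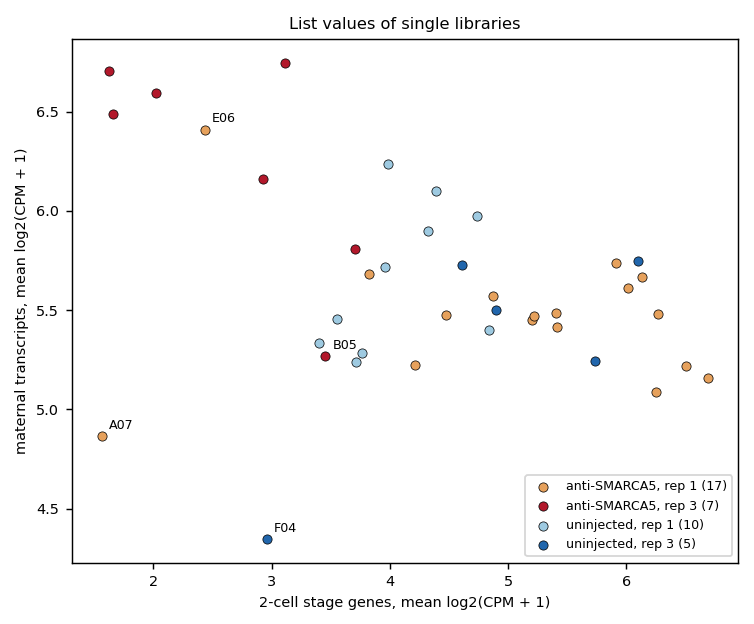
Each point is 1 library, with the mean of log2(CPM + 1) over 2-cell stage genes on the x axis and over maternal transcripts on the y axis. The 7 anti-SMARCA5 libraries of replicate 3 lie at the left (1.62 to 3.71), with maternal values of 5.81 to 6.74 except for well B05 at 5.27, and E06 of replicate 1 (2.44 and 6.41) lies among them. A07 (replicate 1) and F04 (uninjected) are low on both axes.

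Genes of ribosome production and of protein synthesis were lower in replicate 3. Of 82 cytosolic ribosomal protein genes 46 fell (56.1%, against 15.2% of all tested genes) and 0 rose, with a median log2 change of -1.65. Rps20, a protein of the small subunit, was 0, 39.7 and 168 CPM in replicate 1 and 0, 3.38 and 12.6 CPM in replicate 3 (log2 change -3.14, SE 0.76, edgeR adjusted p = 0.00414). The groups overlapped, and the highest library of replicate 3 lay below the median of replicate 1. Rps15, also of the small subunit, fell by 3.08. Per library the list was 2.87, 5.79 and 7.21 in replicate 1 and 1.84, 3.21 and 5.62 in replicate 3, and 6 of 17 replicate 1 libraries lay below the highest of replicate 3. Of 59 genes of the nucleolus, where ribosomal RNA is made and processed, 29 fell (49.2%) and 0 rose (median -1.26). Nhp2, a protein of small nucleolar particles, fell by 3.59, Nip7 by 3.46 and Imp3 by 3.36. Imp3 was 6.71, 126 and 620 CPM in replicate 1 and 2.19, 8.73 and 29.2 CPM in replicate 3.

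Of 37 translation initiation factor genes 12 fell (32.4%, against 15.2% of all tested genes) and 1 rose (2.7%, against 10.8%), with a median of -0.96. Eif6, which keeps the ribosomal subunits apart, fell by 3.11 and Eif3b, a subunit of initiation factor 3, by 3.11. Of 34 proteasome genes 12 fell (35.3%) and 0 rose (median -0.97). Psmb5, a catalytic subunit of the proteasome, fell by 4.09 (SE 1.02, edgeR adjusted p = 0.00524), from a median of 21.2 to 0 CPM, with 4 of 17 replicate 1 libraries below the highest of replicate 3. The number of detected genes was lower in the same libraries, and its part in these falls was not tested.

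Stress genes moved in both directions, and are to be read against the 10.8% of all tested genes that rose and the 15.2% that fell. Of 18 heat shock genes 8 fell and 2 rose (median -0.93). Hspa5, the chaperone of the endoplasmic reticulum, was 76.1, 635 and 977 CPM in replicate 1 and 14.6, 84.5 and 322 CPM in replicate 3 (log2 change -2.15, SE 0.42, edgeR adjusted p = 0.000817). Hsp90ab1, a cytosolic chaperone, fell by 2.02 and Hspa1a by 2.48. Dnaja2 rose by 1.18 and Hspd1 by 0.72. Of 17 genes of the integrated stress response 5 fell (29.4%) and 3 rose (17.6%). Ddit3, which encodes the transcription factor CHOP, fell by 3.58 (median 25.3 to 0 CPM), and Ddit4, an inhibitor of mTOR signalling, by 2.44, with 6 of 7 libraries below all of replicate 1. Of 15 p53 targets 3 fell (20%, near the share of all genes) and 0 rose, among them Cdkn1a, a cell cycle inhibitor, at -1.56. Of 7 interferon response genes 0 were called.

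Cell cycle genes moved in both directions. Of all tested genes, 15.2% fell and 10.8% rose. Of 30 mitosis genes 14 fell (46.7%) and 6 rose (20%), with a median of -0.78. Cdc20, an activator of the anaphase-promoting complex, was 16.2, 178 and 908 CPM in replicate 1 and 11.5, 15.2 and 53.5 CPM in replicate 3 (log2 change -3.20, SE 0.61, edgeR adjusted p = 0.000670), with 4 of 7 libraries below all of replicate 1. Aurkb and Cdca8, both of the chromosomal passenger complex, fell by 2.92 and 2.84, and Aurka fell by 2.73. Wee2, an oocyte kinase that holds back CDK1, rose by 2.09, and the spindle checkpoint gene Mad2l1 by 1.79. Of 37 DNA replication genes 9 fell (24.3%) and 4 rose (10.8%, the share of all genes), with a median of -0.42. Orc1, of the origin recognition complex, was 6.95, 158 and 277 CPM in replicate 1 and 0.675, 10.5 and 37.0 CPM in replicate 3, and fell by 3.08 (SE 0.59, edgeR adjusted p = 0.000704).

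Transcription factors linked to genome activation also moved in both directions. Of 30 tested, 8 fell (26.7%, against 15.2% of all tested genes) and 5 rose (16.7%, against 10.8%), with a median of -0.68. Obox1 and Obox5, homeobox genes already present in the egg, rose by 2.62 and 2.49, and Max, the partner of MYC proteins, by 1.72. Usf1 fell by 2.85 and Dppa4 by 2.45. Dppa4, which acts upstream of 2-cell stage genes in embryonic stem cells, was 8.39, 155 and 370 CPM in replicate 1 and 0, 19.8 and 85.6 CPM in replicate 3. Of 39 developmental regulators 4 fell (10.3%, below the 15.2% of all tested genes) and 0 rose (median -0.16, beside -0.23), and Gata1, known for its role in blood, fell by 4.50. Of 13 mitochondrially encoded genes 3 fell (23.1%, against 15.2% of all tested genes) and 0 rose (median -0.91). Among them, mt-Nd4l was at 115, 322 and 2938 CPM in replicate 1 and 35.3, 83.7 and 140 CPM in replicate 3.

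Of the markers of the labelled stage, Zfp352 was above 3 counts in all 24 libraries, and the others were missing from more of replicate 3. Zscan4d was above 3 counts in 16 of 17 libraries of replicate 1 and 5 of 7 of replicate 3. For Tcstv3 these were 16 and 3, for Zscan4c 14 and 2, and for Obox3 15 and 2. Dppa3, a maternal gene kept in early embryos, and Gdf9 were above 3 counts in all 24 libraries, but maternal RNA does not mark the 2-cell stage. Markers of other cells that a washed embryo could carry were measured too. The 19 markers of cumulus and granulosa cells summed to 62.2, 145 and 247 CPM in replicate 1 and 35.8, 59.3 and 289 CPM in replicate 3, and 0 of the 6 tested were called. Well B05 had the highest mean of log2(CPM + 1) over these markers in replicate 3 (2.51, next 1.26), and the part of such cells in its values was not tested. Of these markers 4 and 2 were at or under 3 counts in every library of replicates 1 and 3. The 8 measured blood and oviduct markers summed to 35.8, 290 and 548 CPM in replicate 1 and 20.2, 77.6 and 304 CPM in replicate 3, of which 3 were tested and 1 fell, Epcam, by 2.08. Epcam, an epithelial adhesion gene, had a median of 129.7 CPM in replicate 1 and 13.9 CPM in replicate 3, and of 211 CPM in uninjected replicate 1. Cdh1, which encodes E-cadherin, had medians of 123 and 57.2 CPM in replicates 1 and 3, and was above 3 counts in all 24 libraries.

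**Figure D4:**
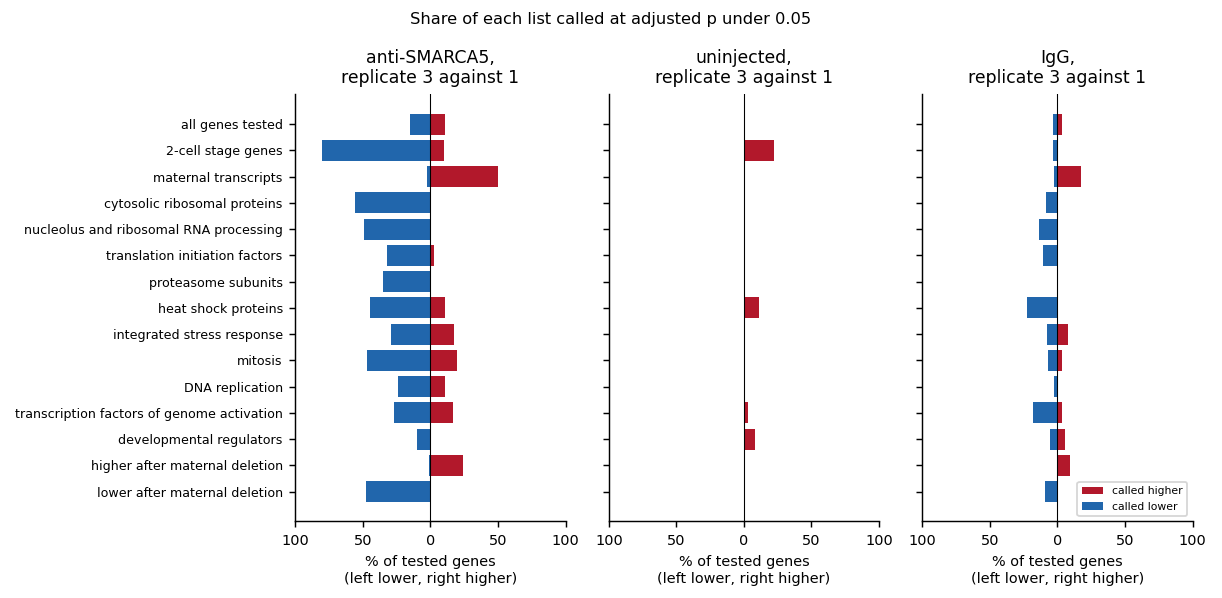
Bars show the percent of each list's tested genes called higher (right) or lower (left) in replicate 3 at an edgeR adjusted p under 0.05, in anti-SMARCA5, uninjected and IgG embryos. In anti-SMARCA5 embryos 25 of 31 2-cell stage genes are lower and 21 of 42 maternal transcripts higher. In uninjected embryos 6 of 27 2-cell stage genes are higher.

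The same replicate difference in uninjected embryos was set beside that of the injected ones, to separate the collection from the injection. Plate column also differed with injection in replicate 3, and its part cannot be told apart. With all 5 libraries of replicate 3, 63 genes rose (0.601% of 10491 tested) and 6 fell (0.0572%), and 1555 had an unadjusted p under 0.05. Of 27 tested 2-cell stage genes 6 rose and 0 fell, with a median log2 change of 1.20, opposite in sign to the -3.09 of injected embryos. Their list value in replicate 3 was 4.89 in well D04, 6.10 in E04, 2.96 in F04, 4.61 in G04 and 5.74 in H04, against 3.40 to 4.84 in replicate 1, so the collections overlapped. Of the genes called in injected embryos, those higher there (1158 tested in both) had a median of 0.01 in uninjected embryos, and those lower (1629) a median of -0.21. Of 9930 genes tested in both, 20 were called in both (0.718% of the calls of injected and 29.4% of those of uninjected embryos), 8 of them in the same direction. The log2 changes correlated with r = 0.06 (rho = 0.09) across genes, which are not independent and share a lane and a scaling.

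**Figure D5:**
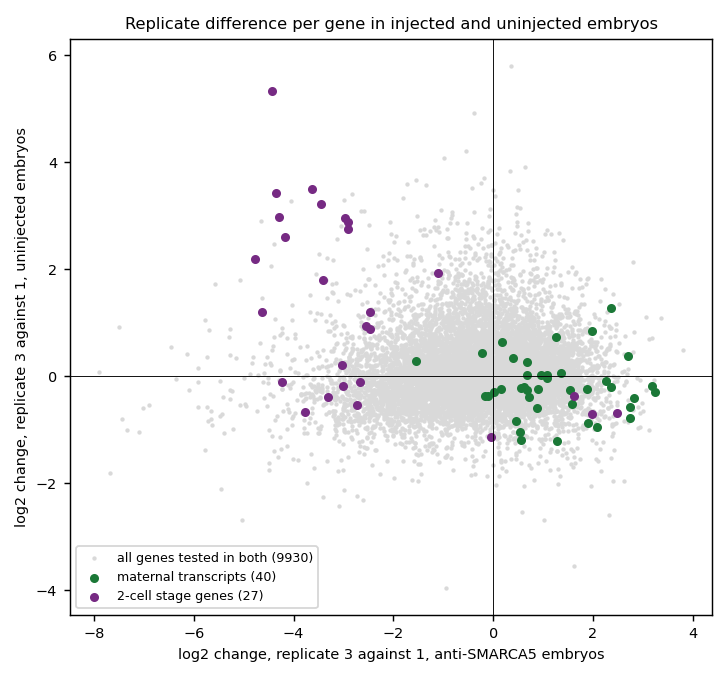
Each point is 1 of 9930 genes tested in both, with the log2 change of replicate 3 against replicate 1 in anti-SMARCA5 embryos on the x axis and in uninjected embryos on the y axis. The 40 maternal transcripts lie mostly to the right and near 0 on the y axis. The 27 2-cell stage genes lie mostly to the left, many of them above 0 on the y axis.

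Without well F04 the uninjected comparison called 588 genes higher and 545 lower of 10986. Of 29 2-cell stage genes 13 then rose and 1 fell (median 1.48), again with a median above 0. The nucleolar and translation lists had medians below 0, as in injected embryos. Of these lists, 24 of 59 nucleolar, 13 of 82 ribosomal protein, 13 of 37 initiation factor and 7 of 34 proteasome genes fell and 0 rose, with medians of -0.84, -0.53, -0.79 and -0.54. Of 10230 genes tested in both, 382 were called in both (13.6% and 34.6% of the respective calls), 303 of them in the same direction. Well F04 held 8.05 for the ribosomal list and 4.35 for the maternal list, the highest and the lowest of its group.

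Whether the 2 replicate differences differ was tested as an interaction of the 4 groups. Of 12981 genes, 1441 (11.1%) were called, 500 with a more positive (3.85%) and 941 with a more negative difference (7.25%) in injected embryos, and without well F04 368 were more positive and 841 more negative of 13490 (8.96%). Of 32 2-cell stage genes 27 were more negative and 2 more positive (median -4.88), and the same counts were found without well F04 (median -5.24). Of 46 maternal transcripts 16 were more positive and 1 more negative (median 1.22), and 12 and 1 without it. The counts for the translation lists moved by more with that library. Of 82 ribosomal protein genes 17 were more negative with it (20.7%) and 6 without it (7.32%). For 59 nucleolar genes these were 6 (10.2%) and 2 (3.39%). Of 37 initiation factor genes 1 was more negative and 2 more positive with it, and 0 and 2 without it. Of 34 proteasome genes 2 were more negative with it and 0 were called without it. Without it, the share called in each of these lists was below the 8.96% of all genes. Ribosomal protein genes then had a median of -1.12, beside -0.42 for all genes.

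Among called genes of sufficient level (average log2 CPM of at least 5), Gm4340 had the most negative value, at -9.66 (SE 1.67, edgeR adjusted p = 0.000472). BB287469, a 2-cell stage gene below that level, stood at -10.87 (SE 1.96, edgeR adjusted p = 0.000707), with a median of 9.57 CPM in injected replicate 1 and 0 CPM in replicate 3. Gm4340 was 0.232 CPM at the median of uninjected replicate 1 and 45.6, 259, 0, 26.8 and 192 CPM in the 5 libraries of uninjected replicate 3, the 0 being well F04, while injected embryos went the other way. Gm8300 (-7.65), Dub1 (-7.22), Gm2016 (-7.17) and AF067061 (-6.95) followed among those that also had over 3 counts in 80% of the libraries of a group. Gm2016 had medians of 268 and 19.8 CPM in injected replicates 1 and 3. The largest positive values were 6430710C18Rik (4.47), Med30 (3.97), 1700019E19Rik (3.89), Gm11381 (3.73) and Eef2k (3.73). Med30, a subunit of the Mediator of transcription, had medians of 15.6 and 91.8 CPM in injected replicates 1 and 3. It was 9.38, 30.1, 34.1, 11.7 and 6.35 CPM in uninjected replicate 3.

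Set against uninjected embryos of their own collection, the 2 injected collections gave the following counts. In replicate 1 injection gave 1640 called genes (12.6% of 12981), 1273 higher (9.81%) and 367 lower (2.83%), with 18 of 32 2-cell stage genes higher and 0 lower (median 2.09). In replicate 3 it gave 3818 (29.4%), 1637 higher (12.6%) and 2181 lower (16.8%), with 19 of 32 2-cell stage genes lower and 3 higher (median -2.43). Maternal transcripts were higher for 3 and lower for 1 of 46 in replicate 1, and higher for 23 and lower for 1 in replicate 3 (medians 0.37 and 1.62). Ribosomal protein genes were lower for 6 of 82 in replicate 1 and 70 of 82 in replicate 3. Developmental regulators were higher for 26 of 44 in replicate 1 (median 2.59) and for 4 in replicate 3 (median 0.60). Mitochondrially encoded genes were higher for 13 of 13 in replicate 1 (median 1.73), and 0 were called in replicate 3 (median 0.37). The test of the difference between these effects is the interaction above. The counts within replicate 3 include uninjected well F04 and were not computed without it. That library was the highest of its group in the ribosomal list and the lowest in the maternal list.

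IgG embryos also differed between the collections. They gave 621 called genes of 9280 (6.69%), 338 higher (3.64%) and 283 lower (3.05%). Trim21 was at 0 in all IgG libraries of replicate 1 and was 0, 182 and 1513 CPM in replicate 3, so the IgG difference is also one of Trim21 RNA, and the collection and Trim21 cannot be told apart there. Of 9148 genes tested in both, 414 were called in both IgG and anti-SMARCA5 embryos (66.7% and 15.3% of the calls), 412 in the same direction, and the log2 changes correlated with r = 0.64 across genes. Genes called higher in anti-SMARCA5 embryos had medians of 1.41 there, where they were chosen, and 0.79 in IgG, and those called lower -2.23 and -0.77. Maternal transcripts rose for 7 and fell for 1 of 40, and Btg4 changed by 2.06 (adjusted p = 0.0190). For 2-cell stage genes 0 of 29 rose and 1 fell (median -0.91). Of 82 ribosomal protein genes 7 fell (8.54%) and 0 rose (median -0.77). Of 59 nucleolar genes 8 fell (13.6%) and 0 rose (median -0.75). A test of the difference between anti-SMARCA5 and IgG embryos in their replicate differences, chosen after the data were seen, called 40 of 12659 genes (0.316%), 5 more positive (0.0395%) and 35 more negative (0.276%). That count was 285 with DESeq2 and 13 to 445 when single anti-SMARCA5 libraries of replicate 3 were left out (445 without well D05), and 26 to 135 when single IgG libraries of replicate 3 were left out (135 without well A04). By this test 1 of 32 2-cell stage genes was more negative (median -1.97) and 1 of 44 maternal transcripts more positive (median 0.84). Of 82 ribosomal protein genes (median -0.99) and 59 nucleolar genes (median -0.74) 0 were called. The median of all genes was -0.34.

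The maternal deletion of Smarca5, measured on other lanes in embryos labelled Smarca5 +/- from knockout females, gave lists of genes at least 2-fold higher or lower than in wild type (from 4907 called of 8518, 57.6%). Of 2259 tested genes higher after deletion, 545 rose (24.1%, against 10.8% of all) and 21 fell in replicate 3 against replicate 1 (median 0.64). Of 1962 lower after deletion, 941 fell (48.0%, against 15.2% of all) and 10 rose (median -1.49). In uninjected embryos 7 of 2116 of the higher list rose (0.331%) and 1 fell. Of 1969 of the lower list 4 rose and 5 fell (0.254%), where 0.601% of all genes rose and 0.0572% fell. Without well F04, 132 of 2175 of the higher list rose and 4 fell (6.25% called, median 0.27). Of 1970 of the lower list 29 rose and 352 fell (19.3% called, median -0.50), beside 588 and 545 of all 10986 (10.3% called). In IgG embryos 181 of 1951 of the higher list rose (9.28%) and 4 fell. Of 1968 of the lower list 5 rose and 185 fell (9.4%), where 3.64% of all genes rose and 3.05% fell. Of 8337 genes tested in both, 1729 were called in both (68.6% of the replicate calls and 36% of the deletion calls), 1681 in the same direction.

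Within replicate 1 the amount of Trim21 RNA varied from 266 to 6125 CPM between libraries, and no gene followed it past the threshold. Of 6125 genes 0 were called for a slope on log2(Trim21 CPM + 1) with edgeR, and 1013 had an unadjusted p under 0.05. DESeq2 was not run for it. Without replicate 15 (well G06) the count was 40, and with both collections and a term for the replicate it was 111. The smallest p-values were those of Ccnd1, encoding cyclin D1, which changed by 0.76 per doubling of Trim21 (SE 0.14, edgeR adjusted p = 0.0511), and of Gm11487 and Egln3 (1.09 and 1.02), and in the other direction Larp4 (-0.58), Omt2b (-0.61) and Sgol1 (-0.51), all at an adjusted p of 0.0551. With Trim21 RNA as a covariate, the comparison of the collections called 1347 genes higher and 1834 lower.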

How the data were processed

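The deposited read counts per gene of the injection experiment were whole numbers, not normalized. Per the submitters' processing notes, reads were handled with Trim Galore 0.6.5, cutadapt 2.3 and HISAT2 2.1.0 on GRCm38, and the file headers have the layout of a SeqMonk probe report. Strand use, counting of reads with several matches and removal of duplicates are not given in the sources used here, and affect antisense, overlapping and multicopy genes. The authors' counts of lines with the same identifier (57 identifiers) were summed, which left 25900 genes. Libraries with under 100000 counts were left out, and those kept held 365597 to 4009610 counts in the anti-SMARCA5 and uninjected groups of replicates 1 and 3. No pair of libraries in these groups held identical values.

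Counts were compared with edgeR 4.0.16 (TMM, filterByExpr, robust quasi-likelihood F test, R 4.3.3), each comparison on its own groups, and genes were called at a Benjamini-Hochberg adjusted p under 0.05. DESeq2 1.42.0 was an alternative. SE is the log2 change divided by the square root of F. The difference of differences came from 1 fit of 4 groups. CPM scales each count by its library's total, and the value of a list in a library averages log2(CPM + 1) over its genes. Library measures were compared by two-sided exact permutation tests (scipy 1.17.1). Scripts were tested on simulated data with known changes. The anti-SMARCA5 comparison called 52.3% of 88 genes changed 4-fold and 2.11% of 95 changed 2-fold. For the uninjected comparison these were 64.9% of 94 and 9.38% of 96. The difference of differences called 8% of 100 genes changed 4-fold and 0% of 100 changed 2-fold. A gene that was not called is therefore not shown to be unchanged. The members and lists were chosen with earlier results of these data known. Named genes were Trim21, Smarca5 and Smarca1, the 10 largest rises and falls among called genes (average log2 CPM of at least 5, over 3 counts in 80% of the higher group's libraries), the 5 largest differences of differences each way, up to 4 genes per list by size of change and the 3 smallest slope p-values each way. Other list members named were chosen after their values were seen. One gene that this rule names is not reported here.

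Promoters are from RefSeq (GRCm38.p6) and matched 79.5% of the tested genes (82.2% of those higher, 77.9% of those lower), so a comparison of motif shares between gene sets is void and was not made. Gene positions and overlaps are those deposited with the counts, on GRCm38. Gene types are from the GENCODE annotation of GRCm38, which matched 96.5% of identifiers. Replicate 2 was not compared, since it holds no uninjected library and no IgG library of enough depth. Alternatives were other scalings and tools, no low-count filter, a higher minimum count, thinning, covariates and leaving out single libraries.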

Additional observations from a re-analysis of the deposited data

Results flagged for a closer look

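Of 75 groups of 4 to 10 libraries examined for a single library far from the others, 9 held one. Chance alone gives about 1 in 20. In anti-SMARCA5 replicate 3, well B05 was lowest for the subcortical maternal complex (5.42, next 6.62) and highest for Smarca5 (518 CPM, next 175 CPM). Well A05 of that group held the most counts (4009610, next 1905495).

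In uninjected replicate 3, well F04 was highest for the nucleolar list (7.86, next 6.45) and for Smarca5 (1061 CPM, next 525 CPM), and lowest for developmental regulators (1.55, next 2.76). Well E04 was highest there for the integrated stress response list (5.42, next 4.85). In uninjected replicate 1, well D09 held the fewest counts (365597, next 1391668) and well A09 the most Trim21 (2.16 CPM, next 0.502 CPM).

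The replicate difference itself differed between anti-SMARCA5 and uninjected embryos for 1441 genes by the interaction test, and between anti-SMARCA5 and IgG embryos for 40. Outside the compared groups, Trim21 was above 3 counts in 6 of 7 anti-SMARCA5 libraries of replicate 2.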

How the results depend on the processing

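The 2887 genes called between the anti-SMARCA5 collections became 1154 after thinning (2658 genes tested), were 2113 to 3550 when single libraries were left out, and stayed within 1.5 times under the other alternatives. Of the single gene results under all alternatives, 3031 kept direction and side of the threshold, 93 lost it, 62 gained it and 1 reversed, Tnfaip6, at -0.26 without well B05 (adjusted p = 0.865) and at most 1.83 when any other single library was left out (log2 change 1.005 with all). For Smarca5, 7 of 33 alternatives passed the threshold.

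The uninjected count of 69 became 535 with DESeq2, 26 with total counts, 815 without a filter, 15 after thinning and 0 with depth as covariate (edgeR, 1186 at an unadjusted p under 0.05). Single libraries of replicate 3 moved it from 5 (without H04) to 1133 (without F04), and it was 26 without D04 and 23 without E04. The difference of differences (1441) became 2365 with DESeq2, 769 after thinning and 565 with depth as covariate, and 966 to 2434 when single libraries were left out, the latter without well D05. Its share of positive calls was 34.7%, against 20.6% with DESeq2, 19.4% with relative log expression factors and 25.2% with total counts.

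The IgG count (621) became 1366 with DESeq2, 198 with total counts, 286 without a filter, 264 with a minimum of 500000 counts, 373 after thinning and 280 with depth as covariate. The difference from IgG (40), and its alternatives, were chosen after seeing the data. It became 285 with DESeq2, 136 without a filter, 182 in 1 fit of 6 groups, and 13 to 445 when single libraries of replicate 3 were left out. Without anti-SMARCA5 wells B05 and D05 in turn it was 205 and 445, without A05 and G05 13 each, and without C05 17. Without IgG wells A04, F03, B04 and C03 in turn it was 135, 72, 69 and 26. The Trim21 slope (0) became 40 without well G06 and 111 with both collections. The causes were not tested.

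No paired analysis was possible because the replicate number is itself what is compared. Depth limits genes near 0 CPM, whose folds are uncertain, and 5 uninjected libraries limit that comparison.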
